A study of Mus musculus with 126 samples.

Results

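Genes of the 4 mouse Hox clusters were followed through RNA-seq libraries of embryonic stem cells. Members were taken by symbol, as every gene of the deposited table named Hoxa, Hoxb, Hoxc or Hoxd with a paralogue number, and they make up 39 of its 23420 genes. The 38 described here are 10 of the Hoxa cluster, 10 of Hoxb, 9 of Hoxc and 9 of Hoxd, and every count, median and sum below is over these 38. All cells were of the mouse line J1 or of its background and were grown with serum and leukaemia inhibitory factor on gelatin. They were either wild type (WT) or a triple knockout (TKO) of the DNA methyltransferases (Dnmt1-/-, Dnmt3a-/-, Dnmt3b-/-). Each genotype received for 36 h either the histone deacetylase inhibitor trichostatin A (TSA), labelled 5 ng/µl, or its solvent DMSO at 0.0033%. Each of these 4 groups had 2 RNA-seq libraries. Nothing in the labels says whether the 2 libraries of a group came from separate cultures, so p-values measure the spread between these libraries, which may be technical, and the TKO is compared with WT through the cells of 1 line each. The wider question of the series is the part of DNA methylation and histone acetylation in transcription factor binding, and 118 of its 126 samples, none of them RNA-seq libraries, were not used here.

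Hox genes encode homeodomain transcription factors that give cells of the embryo their place along the body axis. In each cluster the genes stand in the order of their paralogue numbers, and low numbers, at the 3′ end, are used earlier and nearer the head than high numbers at the 5′ end. In embryonic stem cells Polycomb complexes keep the clusters nearly silent, and retinoic acid, Wnt signals and Cdx factors open them as cells differentiate. Hox proteins bind DNA together with TALE homeodomain partners of the Pbx and Meis families. Paralogues 1 to 4 are called anterior here, 5 to 8 central and 9 to 13 posterior.

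Library totals ran from 13280631 to 15542527 counts. The targeted genes were lower in the TKO at the RNA level: Dnmt1 fell from 446 ± 25.4 to 130 ± 6.31 CPM (read counts scaled to the normalised library size; SD, n = 2) between WT DMSO and TKO DMSO, Dnmt3a from 211 ± 36.2 to 26.4 ± 0.80 CPM and Dnmt3b from 592 ± 5.33 to 44.9 ± 1.79 CPM. The pluripotency markers that define the labelled cell type were present in every library, with a summed level of 1959 to 4650 CPM over 10 genes, Pou5f1 and Nanog among them. All Hox values below are normalised CPM per library unless reads are named, and 3 reads in a library correspond to 0.183 to 0.243 CPM.

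The Hox genes were read at low levels in all groups. Together the 38 genes took 2847 reads over the 8 libraries, and each had at least 2. Their mean levels had a median of 0.224 CPM, against 21.9 CPM for the median gene that entered the tests, neither scaled by gene length. Per kb of exon, the genes at the 5′ ends averaged 1.91 CPM per kb over the 8 libraries for Hoxb13, 1.31 for Hoxd13 and 1.13 for Hoxc13. They did not lead their clusters in every group: Hoxb9 was at 0.597 against 0.549 CPM per kb for Hoxb13 in WT DMSO and at 0.595 against 0.503 in TKO DMSO, Hoxd8 at 2.06 against 0.770 for Hoxd13 in WT TSA, and Hoxc12 at 1.76 against 1.46 for Hoxc13 in TKO DMSO. Hoxd13 took 13.4% of the Hox reads, Hoxc13 11.2% and Hoxb13 10.7%. The edgeR filter on low counts, at least 0.682 CPM before TMM scaling in 2 libraries, kept 14 members and left 24 untested. The untested genes had 2 to 47 reads each over the 8 libraries, with a median of 20.

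The promoters of 4 members are printed because each has a call below and because they differ widely in CpG content, CpG being the dinucleotide that the deleted methyltransferases modify. No RefSeq promoter was matched for Hoxb13. Hoxd1 and Hoxa10 were called higher with TSA in both genotypes, Hoxd4 was called in WT cells, and Hoxd13 was called higher in the TKO under TSA. Each sequence is the 250 bases before the RefSeq start (GRCm38.p6), read 5′ to 3′ on the strand of the gene, with CG in capitals. The positions are chr2:74762730-74762979 (+) for Hoxd1, chr6:52240855-52241104 (-) for Hoxa10, chr2:74721728-74721977 (+) for Hoxd4 and chr2:74667975-74668224 (+) for Hoxd13.
Hoxd1: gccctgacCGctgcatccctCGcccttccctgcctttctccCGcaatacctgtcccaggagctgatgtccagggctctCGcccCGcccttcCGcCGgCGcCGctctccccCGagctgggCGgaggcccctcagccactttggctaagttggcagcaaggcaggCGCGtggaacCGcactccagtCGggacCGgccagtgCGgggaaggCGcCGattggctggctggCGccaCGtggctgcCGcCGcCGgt
Hoxa10: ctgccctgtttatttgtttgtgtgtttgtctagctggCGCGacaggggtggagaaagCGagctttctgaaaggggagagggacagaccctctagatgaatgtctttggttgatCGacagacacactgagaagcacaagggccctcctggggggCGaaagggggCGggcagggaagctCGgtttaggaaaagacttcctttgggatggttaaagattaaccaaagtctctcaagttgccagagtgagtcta
Hoxd4: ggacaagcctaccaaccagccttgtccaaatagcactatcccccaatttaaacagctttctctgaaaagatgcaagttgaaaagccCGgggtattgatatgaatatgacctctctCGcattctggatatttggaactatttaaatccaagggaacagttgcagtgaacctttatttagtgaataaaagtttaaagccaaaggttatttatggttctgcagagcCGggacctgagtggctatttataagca
Hoxd13: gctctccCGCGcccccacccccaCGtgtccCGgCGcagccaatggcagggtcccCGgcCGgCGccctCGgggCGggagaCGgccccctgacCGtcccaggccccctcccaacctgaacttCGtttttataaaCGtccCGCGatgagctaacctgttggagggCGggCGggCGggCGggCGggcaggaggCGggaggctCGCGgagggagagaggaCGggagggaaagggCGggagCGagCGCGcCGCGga
In these stretches CG occurs 24 times for Hoxd1, 7 times for Hoxa10, 3 times for Hoxd4 and 31 times for Hoxd13. For Hoxd13 the RefSeq start lies 85 bases from the start in the deposited table, and for the other 3 the starts are the same.

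RefSeq promoter windows of 300 bases (250 before to 50 after the start) were matched for 22 of the 38 members. They held a median of 13.5 CpGs, with a range of 4 to 45, against a median of 7 over 32851 promoters. Among the 9 tested genes with a window, the counts were 37 for Hoxd13, 29 for Hoxd1, 20 for Hoxd9, 14 for Hoxb4, 12 for Hoxa10, 9 for Hoxa7, 6 for Hoxd8, and 4 each for Hoxd4 and Hoxd11. The 3 genes of this set that were called higher with TSA in both genotypes, Hoxd1, Hoxa10 and Hoxd8, thus ran from 29 down to 6. The Hoxd8 start in RefSeq lies 874 bases from that of the deposited table. Core motifs of the 5 factors assayed elsewhere in the series were searched on both strands. The MAX motif CACGTG was in 4 of the 22 windows (18.2%, against 7.15% of all promoters), those of Hoxd1, Hoxd4, Hoxd10 and Hoxd13. The SP1 motif GGGCGG was in 9 (40.9%, against 35.7%). The letters CCGGAAG (GABPA), GCATGCG (NRF1) and AGATGGC (YY1) were in none of the 22, and in 8.86%, 3.58% and 6.4% of all promoters. A match is a string of letters in this window and no measured site.

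With TSA in WT cells, 7 of the 14 tested Hox genes rose and 0 fell: Hoxa10, Hoxb9, Hoxb13, Hoxd1, Hoxd4, Hoxd8 and Hoxd9. Fitted increases ran from 2.19-fold for Hoxb9 to 5.24-fold for Hoxb13. Over all 15822 tested genes, edgeR called 27% higher and 25.9% lower at an adjusted p below 0.05 (52.8% in either direction), and among the 2979 tested genes in the level range of the tested members, 0.55 to 3.24 CPM, 38.7% higher and 6.92% lower. The median log2 fold change was 1.03 over the 14 members, 0.80 over the genes of that level range and 0.01 over all tested genes. Genes this low pass the filter more readily when 1 group is high, so the count and the median describe the 14 and do not speak for all 38. Hoxb13, Hoxd1 and Hoxd9 reached the level of the filter in 0 WT DMSO libraries, 2 WT TSA libraries and 1 TKO DMSO library. Only with TSA libraries did they enter the test, so their calls with TSA rest on entry through groups in which they are high. The cells are a bulk population, and fewer cells with a transcript cannot be told apart from less RNA per cell.

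Hoxb13 (chr11:96194361-96196599), the 5′-most gene of its cluster and far from its nearest Hox neighbour, was at 0.713 and 0.729 CPM in the WT DMSO libraries and at 4.15 and 3.46 CPM with TSA. Its log2 fold change was 2.39 ± 0.39 (SE; edgeR adjusted p = 0.000562), and the groups did not overlap.

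In the Hoxd cluster 4 of 6 tested genes rose. Hoxd1 (chr2:74762980-74765142), the 3′-most member, was at 0.357 and 0.324 CPM with DMSO and 1.77 and 1.83 CPM with TSA, a log2 fold change of 2.37 ± 0.49 (edgeR adjusted p = 0.00216). Hoxd8 (chr2:74705489-74707307), a central gene, was at 0.785 and 0.486 CPM with DMSO and 2.75 and 3.12 CPM with TSA, a log2 fold change of 2.17 ± 0.39 (edgeR adjusted p = 0.000898). Both genes lay higher in each TSA library than in either DMSO library. Hoxd9 (chr2:74697763-74700208) was at 0.428 and 0.324 CPM with DMSO and 1.65 and 0.951 CPM with TSA, a log2 fold change of 1.77 ± 0.49 (edgeR adjusted p = 0.0107). Hoxd4 (chr2:74721978-74729159) was at 0.856 and 0.162 CPM with DMSO and 1.77 and 1.09 CPM with TSA, a log2 fold change of 1.44 ± 0.56 (edgeR adjusted p = 0.0497). Its 2 DMSO libraries held 12 and 2 reads: the log2 fold change was 3.08 without the first of them and 0.74 without the second, and the call was lost when any library but that first was left out.

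Hoxa10 (chr6:52231197-52240854) and Hoxb9 (chr11:96271330-96276593) are posterior genes used in trunk and limb. Hoxa10 was at 0.928 and 0.243 CPM with DMSO and 1.95 and 1.43 CPM with TSA, a log2 fold change of 1.48 ± 0.49 (edgeR adjusted p = 0.0262). Hoxb9 was at 1.93 and 1.30 CPM with DMSO and 3.54 and 3.60 CPM with TSA, a log2 fold change of 1.13 ± 0.38 (edgeR adjusted p = 0.0262). Neither gene overlapped between the groups. Hoxa10, Hoxb9 and Hoxd9 missed the threshold when the second WT DMSO library or the first WT TSA library was left out, and Hoxb9 also without the second WT TSA library. For Hoxa10 the log2 fold change was 2.76 without the first WT DMSO library and 0.86 without the second.

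The genes at the 5′ ends of Hoxc and Hoxd did not pass the test for TSA in WT cells. Hoxc13 (chr15:102921131-102928814), known for its part in hair and nail, was at 2.14 and 2.11 CPM with DMSO and 1.46 and 2.04 CPM with TSA (log2 fold change -0.28 ± 0.30, edgeR adjusted p = 0.444). Hoxd13 (chr2:74668310-74671599), a gene of the digits and the genital tubercle, was at 2.14 and 2.11 CPM with DMSO and 1.65 and 2.17 CPM with TSA (log2 fold change -0.16 ± 0.30, edgeR adjusted p = 0.68). Per kb each was the highest gene of its cluster in WT DMSO (0.873 ± 0.00982 and 0.855 ± 0.00962 CPM per kb). Hoxa7, Hoxb4, Hoxb7, Hoxc12 and Hoxd11 also did not pass, with log2 fold changes of -1.09, 0.43, 0.14, -0.87 and 0.93.

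**Figure D1:**
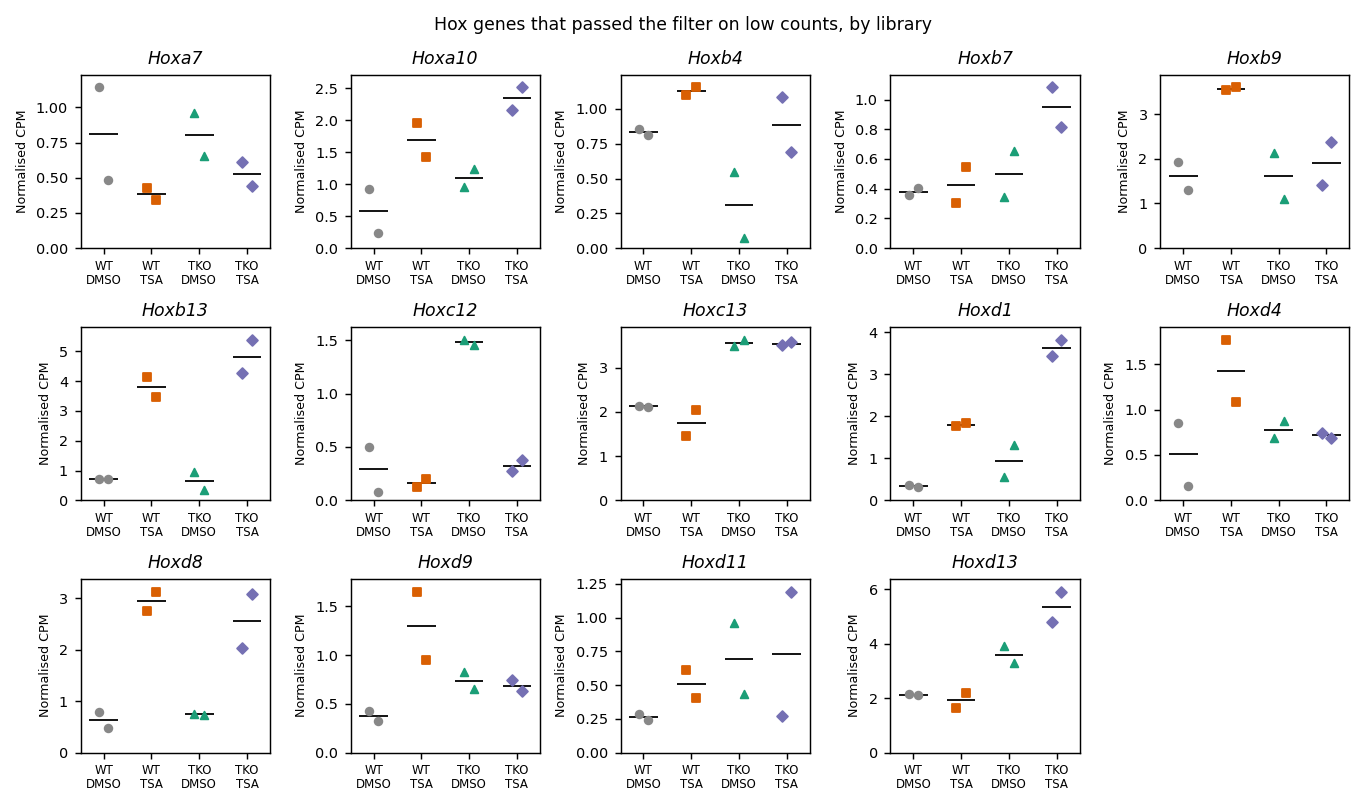
Normalised CPM (y axis, linear, from 0) of the 14 Hox genes that passed the filter on low counts, in the 2 libraries of each of the 4 groups (points; horizontal line, group mean). Hoxb13 was at 3.46 to 4.15 CPM with TSA in WT cells and at 0.713 to 0.729 CPM with DMSO, and Hoxc12 was above 1 CPM in the TKO DMSO libraries alone.

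With TSA in TKO cells, 4 of the 14 tested Hox genes rose (Hoxa10, Hoxb13, Hoxd1 and Hoxd8) and 1, Hoxc12, fell. Over all tested genes edgeR called 30.8% higher and 27.9% lower (58.7% in either direction), and in the members' level range 39% and 12.3%. The median log2 fold change was 0.41 over the 14 members, 0.66 over the genes of that level range and 0.04 over all tested genes. The 2 TSA comparisons use different libraries, but they share the same fit, its dispersion and the filter on low counts. Same-numbered WT TSA and TKO TSA libraries also deviated together across genes (r = 0.39). The 4 genes called higher here and in WT cells are therefore not fully independent repeats.

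Hoxb13 was at 0.958 and 0.364 CPM in the TKO DMSO libraries and 4.26 and 5.40 CPM with TSA, a log2 fold change of 2.84 ± 0.39 (edgeR adjusted p = 0.00011). Its TSA libraries lay far above its DMSO libraries. Hoxd1 was at 0.547 and 1.31 CPM with DMSO and 3.45 and 3.83 CPM with TSA, a log2 fold change of 1.97 ± 0.37 (edgeR adjusted p = 0.000994). Hoxd8 was at 0.752 and 0.727 CPM with DMSO and 2.03 and 3.07 CPM with TSA, a log2 fold change of 1.78 ± 0.38 (edgeR adjusted p = 0.00206). Again no DMSO library reached a TSA library. The log2 fold change of Hoxb13 was 3.70 without the first TKO DMSO library, and that of Hoxd1 was 2.71 without the second. Hoxa10 was at 0.958 and 1.24 CPM with DMSO and 2.16 and 2.51 CPM with TSA, a log2 fold change of 1.09 ± 0.43 (edgeR adjusted p = 0.0457), and missed the threshold when any of 6 libraries was left out in turn, all but those of WT DMSO.

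Hoxc12 (chr15:102936853-102938517), next to Hoxc13 in the cluster, moved the other way. Its counts were 22 and 20 reads in the TKO DMSO libraries and 4 and 6 with TSA, or 1.50 and 1.46 against 0.27 and 0.376 CPM. The log2 fold change was -2.16 ± 0.54 (edgeR adjusted p = 0.0055), and DESeq2 did not call it (adjusted p = 0.0565). Hoxd4 and Hoxd9, called in WT cells, were at 0.684 and 0.873 against 0.744 and 0.69 CPM and at 0.821 and 0.655 against 0.744 and 0.627 CPM, with log2 fold changes of -0.11 ± 0.57 and -0.11 ± 0.47. Both overlapped between the groups.

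**Figure D2:**
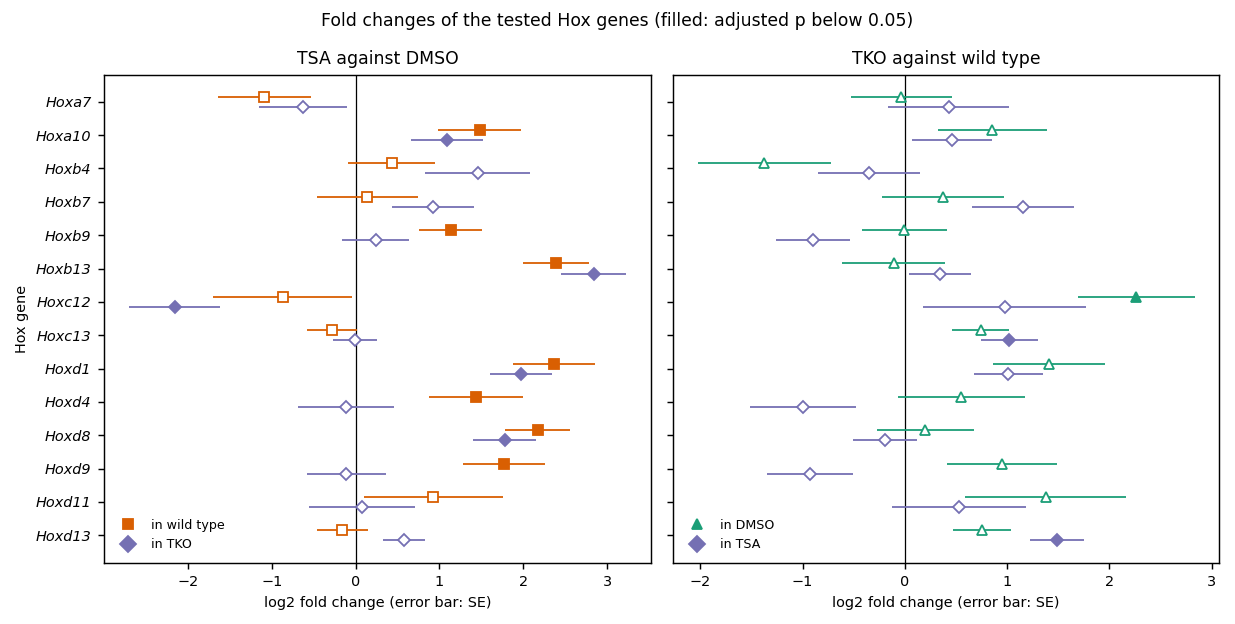
The log2 fold changes of the 14 tested Hox genes with their SE (x axis) for TSA against DMSO in WT and TKO cells (left) and for TKO against WT in DMSO and in TSA (right); filled symbols mark an edgeR adjusted p below 0.05. Hoxb13 stands at 2.39 in WT and 2.84 in the TKO on the left, and Hoxc12 at 2.26 in DMSO on the right.

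Whether the TSA response differed between the genotypes was tested by the interaction, the log2 fold change in the TKO minus that in WT cells. For the 14 members edgeR called 0, against 1.35% of all tested genes (0.879% higher and 0.468% lower). At an unadjusted p below 0.05 there was 1, Hoxd9, and DESeq2 called 0 as well. Hoxd9 had an interaction of -1.88 ± 0.69 (edgeR adjusted p = 0.23), so for Hoxd9 and Hoxd4 (-1.55 ± 0.81, edgeR adjusted p = 0.418) a call in WT cells alone does not show a difference between the genotypes.

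Without TSA, the TKO differed from WT in 1 of the 14 tested Hox genes, Hoxc12, which rose. Over all tested genes, edgeR called 9.63% higher and 10.7% lower (20.4% in either direction). Hoxc12 had 7 and 1 reads in the WT libraries and 22 and 20 in the TKO libraries, or 0.499 and 0.0810 against 1.50 and 1.46 CPM. Its log2 fold change was 2.26 ± 0.57 (edgeR adjusted p = 0.0171). The 2 calls of Hoxc12, here and for TSA in the TKO, share the TKO DMSO libraries, and only in these did the gene reach the level of the filter, so it was testable through the group in which it is high. DESeq2 called it in neither comparison (adjusted p = 0.106 here). This call was lost without the second WT DMSO library or without either TKO DMSO library. The log2 fold change was 4.04 without the first WT DMSO library and 1.55 without the second.

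Hoxc13 and Hoxd13, the neighbours at the same end of their clusters, were at 2.14 and 2.11 CPM each in WT. In the TKO Hoxc13 was at 3.49 and 3.64 CPM and Hoxd13 at 3.90 and 3.27 CPM. The groups did not overlap, but neither gene passed the test (log2 fold change 0.74 ± 0.28 and 0.75 ± 0.28, edgeR adjusted p = 0.0841 and 0.0823). Hoxd1 (1.41 ± 0.55, edgeR adjusted p = 0.0948) and Hoxb4 (-1.38 ± 0.65, edgeR adjusted p = 0.164) also missed it.

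With TSA in both genotypes, the TKO was higher than WT in 2 of the 14 tested genes, Hoxc13 and Hoxd13, and lower in 0. Over all tested genes edgeR called 10% higher and 8.38% lower (18.4% in either direction). Hoxd13 was at 1.65 and 2.17 CPM in WT and 4.80 and 5.90 CPM in the TKO, a log2 fold change of 1.49 ± 0.27 (edgeR adjusted p = 0.00374). Hoxc13 was at 1.46 and 2.04 CPM in WT and 3.52 and 3.58 CPM in the TKO, a log2 fold change of 1.02 ± 0.28 (edgeR adjusted p = 0.0265). The call of Hoxc13 was lost without either TKO TSA library, and both calls were lost without the first WT TSA library, where edgeR called 0 members in all and 2 had an unadjusted p below 0.05. Hoxd1 was at 1.77 and 1.83 CPM in WT and 3.45 and 3.83 CPM in the TKO, and did not pass (1.01 ± 0.34, edgeR adjusted p = 0.0579).

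Set against WT cells with DMSO, TKO cells with TSA had 7 of the 14 tested genes higher and 0 lower, where edgeR called 31.7% of all tested genes higher and 30.2% lower (61.9% in either direction) and, in the members' level range, 41.7% higher and 11.4% lower. This comparison shares its DMSO libraries with TSA in WT and its TSA libraries with TSA in the TKO. Hoxd1 had the largest log2 fold change of the 14, 3.38 ± 0.45 (edgeR adjusted p = 8.13e-05), from 0.357 and 0.324 to 3.45 and 3.83 CPM. Hoxb13 was 6.64-fold higher (log2 fold change 2.73 ± 0.39, edgeR adjusted p = 0.000121) and Hoxd8 3.94-fold (1.98 ± 0.39, adjusted p = 0.00117). Hoxa10 stood at 1.94 ± 0.48 (edgeR adjusted p = 0.00432), and at 3.21 and 1.32 without the first and the second WT DMSO library. Hoxd13 stood at 1.33 ± 0.27 (edgeR adjusted p = 0.00137) and Hoxc13 at 0.74 ± 0.28 (adjusted p = 0.037). The call of Hoxc13 was lost when any library of WT DMSO, TKO DMSO or TKO TSA was left out. Hoxb7 (chr11:96286646-96290163), a central gene, was at 0.357 and 0.405 CPM against 1.08 and 0.816 CPM (1.30 ± 0.53, edgeR adjusted p = 0.0498), and its call was lost when any of the 8 libraries was left out. Hoxb7 reached the level of the filter in the TKO TSA libraries alone, so it too entered the test through the group in which it is high.

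The summed level of the 38 genes was 15.4 and 12.4 CPM with DMSO and 28.3 and 27.3 CPM with TSA in WT cells, and 20.1 and 18.7 CPM with DMSO and 30.9 and 38.0 CPM with TSA in the TKO. In both genotypes the TSA libraries lay above the DMSO libraries. With 2 libraries against 2 an exact permutation test cannot give a p below 0.333, so sums are given without a test. The 10 Hoxa genes went from 2.09 ± 0.778 CPM with DMSO to 3.72 ± 1.04 with TSA in WT cells, and from 2.79 ± 0.271 to 5.09 ± 0.605 CPM in the TKO (SD, n = 2). Hoxb went from 4.32 ± 0.149 to 9.87 ± 0.0291 CPM in WT and from 3.25 ± 1.20 to 9.31 ± 1.12 CPM in the TKO. Hoxd went from 4.62 ± 0.926 to 10.2 ± 0.365 CPM and from 7.75 ± 0.261 to 14.1 ± 2.15 CPM. For these 3 clusters every TSA library was above every DMSO library of its genotype.

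The Hoxc sum went from 2.87 ± 0.279 CPM with DMSO to 3.95 ± 0.752 with TSA in WT cells, without overlap, and stood at 5.61 ± 0.194 with DMSO and 5.93 ± 1.11 with TSA in the TKO. In the TKO the Hoxc range with TSA (5.14 to 6.71 CPM) overlapped that with DMSO (5.47 to 5.75 CPM). Hoxc12 and Hoxc13 held most of this sum in WT DMSO and in the TKO, but not in WT TSA. The other 7 Hoxc genes, summed after the values were seen, went from 0.457 ± 0.0411 to 2.04 ± 0.290 CPM in WT. In the TKO they went from 0.567 ± 0.124 to 2.06 ± 0.996 CPM, and in both genotypes every TSA library was above the DMSO libraries. A difference between Hoxc and the other clusters was not tested. Hoxc took 20.6% of the Hox reads in WT DMSO and 28.9% in TKO DMSO, while Hoxb took 30.9% and 16.9%.

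**Figure D3:**
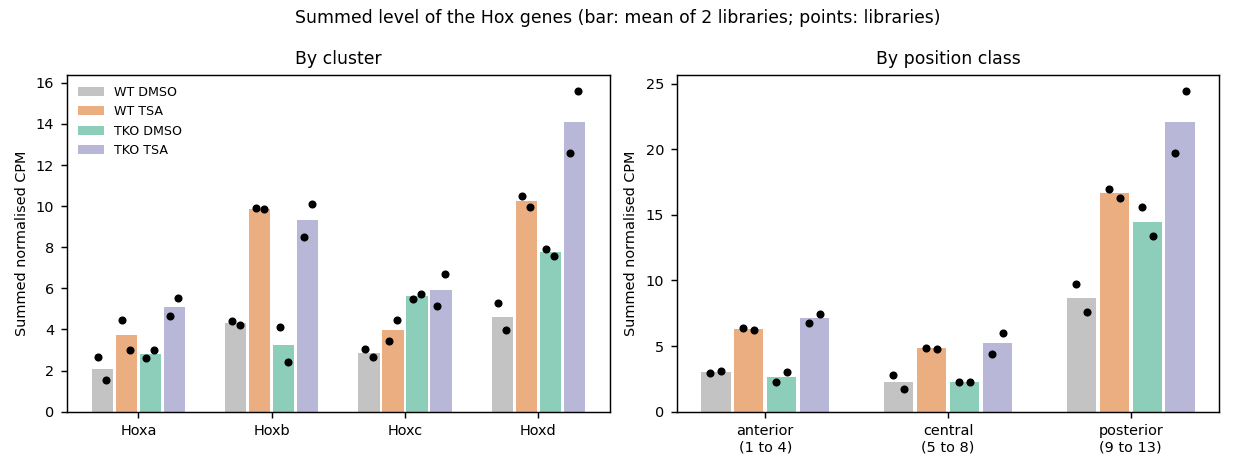
Summed normalised CPM (y axis, linear, from 0) of the members of each cluster (left) and of each position class (right) in the 4 groups; bars are means of 2 libraries and points are the libraries. The Hoxc bars reach 5.61 CPM in TKO DMSO and 5.93 CPM in TKO TSA, and the posterior bars 8.66 CPM in WT DMSO and 14.5 CPM in TKO DMSO.

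By position, the 11 anterior genes summed to 3.00 ± 0.109 CPM in WT DMSO and 2.66 ± 0.564 CPM in TKO DMSO, and the 16 posterior genes to 8.66 ± 1.48 and 14.5 ± 1.56 CPM. The 11 central genes summed to 2.24 ± 0.764 and 2.26 ± 0.00156 CPM. The posterior sum was higher in both TKO DMSO libraries than in either WT DMSO library, and the anterior and central sums overlapped. Few genes carried much of the posterior sum: without Hoxc12, Hoxc13 and Hoxd13, left out after their values were seen, it was 4.12 ± 1.13 and 5.86 ± 1.19 CPM. The libraries then stood at 4.92 and 3.32 CPM in WT DMSO and 6.70 and 5.02 CPM in TKO DMSO, still without overlap. With TSA the anterior sum was 6.33 ± 0.114 CPM in WT and 7.11 ± 0.498 in the TKO, the central sum 4.82 ± 0.0914 and 5.21 ± 1.15, and the posterior sum 16.6 ± 0.474 and 22.1 ± 3.34 CPM.

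Gene by gene, over the 11 anterior genes, 1 lay higher and 5 lay lower in both TKO DMSO libraries than in both WT DMSO libraries. Over the 16 posterior genes 8 lay higher and 1 lower, over the 11 central genes 0 and 3. Of all 20430 genes with a read, 25.6% lay higher and 25.4% lower by the same rule. The 10 Hoxb genes had 0 higher and 5 lower, the 10 Hoxa genes 3 and 1, the 9 Hoxc genes 2 and 1 and the 9 Hoxd genes 4 and 2. Many of these genes have few reads (Hoxb1, with 3 and 6 reads in WT DMSO and 0 and 1 in TKO DMSO, is an example), so such a count is a description.

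Compared per kb of exon, so that levels can be set side by side between genes, the profile along a cluster was not a gradient. Hoxc13 (0.873 ± 0.00982 CPM per kb) and Hoxd13 (0.855 ± 0.00962) stood highest in WT DMSO and did not differ beyond their spread. Hoxc12 led in TKO DMSO with 1.76 ± 0.0419 CPM per kb. Hoxb13 led with TSA, with 2.90 ± 0.370 CPM per kb in WT cells, next to Hoxd8 at 2.06 ± 0.187, and with 3.68 ± 0.612 in the TKO, next to Hoxd13 at 2.15 ± 0.312. In the Hoxb cluster, Hoxb1, Hoxb2, Hoxb3, Hoxb5, Hoxb6 and Hoxb8 stayed at or below 0.188 CPM per kb in every group mean. Over the 38 genes Spearman's rho between paralogue number and CPM per kb was 0.14 with DMSO and 0.27 with TSA in WT cells, and 0.41 with DMSO and 0.33 with TSA in the TKO. Over the 14 tested genes, rho between paralogue number and log2 fold change was -0.18 and -0.10 for TSA in WT and in the TKO, and 0.17 and 0.36 for TKO against WT in DMSO and in TSA. These genes share libraries and clusters, and rho is given as a description.

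**Figure D4:**
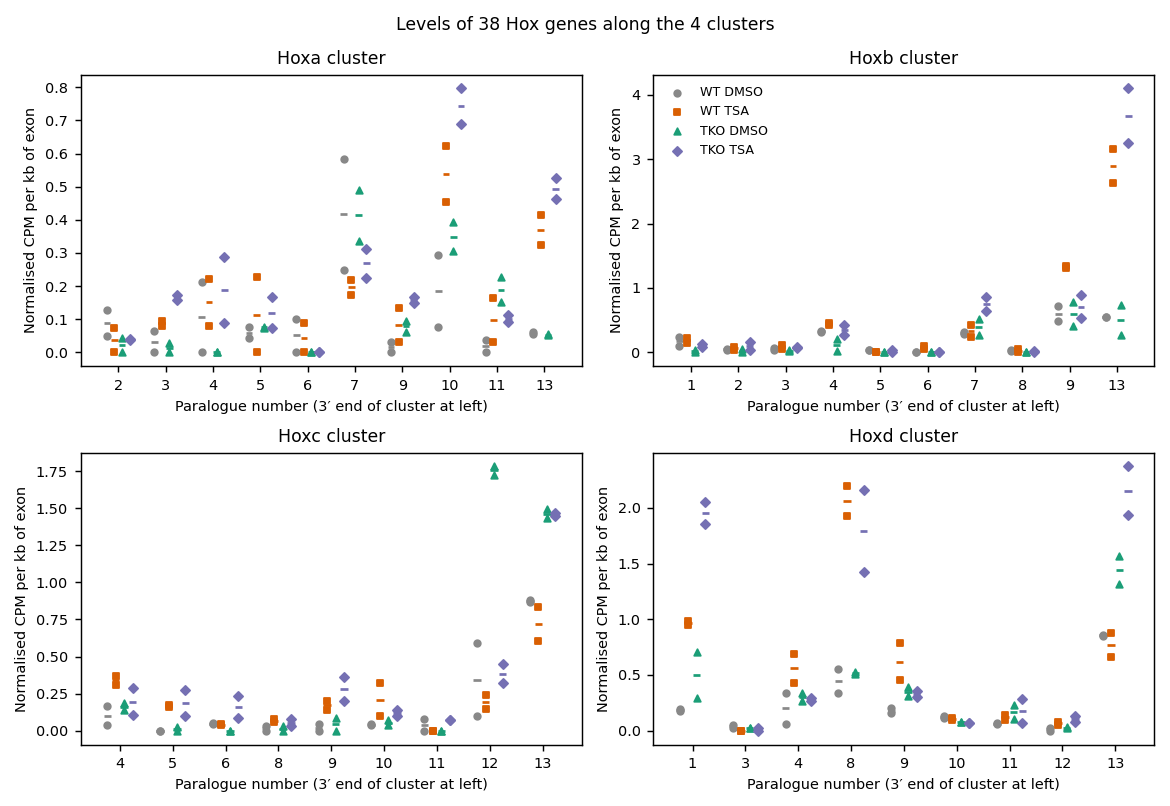
Normalised CPM per kb of exon (y axis, linear, scaled per panel) of 38 Hox genes, in order of paralogue number along each cluster (x axis), with points for the 2 libraries of each group and a short line for their mean. The highest points stand at Hoxb13 with TSA (2.90 and 3.68 CPM per kb in WT and TKO means), and at Hoxc12 in TKO DMSO (1.76 CPM per kb) within its cluster.

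The 24 untested members were read too rarely for a gene-level test, but as a set they were read in every group. They held 60 reads with DMSO and 155 with TSA in WT cells, and 54 and 169 in the TKO. In CPM their sum was 2.30 ± 0.421 and 4.98 ± 0.0337 in WT cells and 1.91 ± 0.482 and 5.46 ± 1.41 in the TKO (SD, n = 2), with the TSA libraries above the DMSO libraries in both genotypes. Hoxa13, at the 5′ end of its cluster, had 1 and 1 reads with DMSO and 7 and 8 with TSA in WT cells, and 1 and 1 with DMSO and 9 and 11 with TSA in the TKO. Hoxc5, a central gene, had 0 and 0 against 7 and 7 reads in WT cells and 0 and 1 against 4 and 12 in the TKO. No DMSO library of either gene reached a TSA library of its genotype. When no filter was applied, edgeR called Hoxa13 and Hoxc5, alone among the 24, higher with TSA in WT and in the TKO. Hoxa3, Hoxa4, Hoxc6 and Hoxc9 were then called higher in the TKO only. Hoxa13 and Hoxc5 were picked after their counts were seen, and the share of all genes called without a filter is not given here. Over all 38 members, 18 lay higher in both TSA libraries than in both DMSO libraries of WT cells and 6 lay lower, where 36.4% and 30.8% of all genes with a read did so. In the TKO 19 lay higher and 5 lower, against 38.4% and 33.3%. For TKO against WT with TSA 13 lay higher and 8 lower, against 28.2% and 27.3% of all genes with a read, and for the TKO with TSA against WT cells with DMSO 18 and 5, against 37.7% and 32.8%. In the level range of the untested members, 32.6% of 3573 other genes lay higher and 9.46% lower in WT, and 30.8% and 14.7% in the TKO; of the 24, 9 lay higher and 4 lower in WT, and 12 and 3 in the TKO. Hoxd10 was the flattest of the 24 with over 15 reads, with 3 reads in each WT library and 2 in each TKO library, and was picked after its counts were seen.

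Other transcripts of the clusters ranged from no read to the level of the tested Hox genes. Hotair and Mir615 had 1 read each over the 8 libraries, Mir10a 2 and Mir10b 1, and Mir196b and Mir196a-2 none. Mir196a-1, between Hoxb13 and Hoxb9, had 2 to 13 reads in each library (mean 0.387 CPM), and Hoxa11as, the antisense RNA of Hoxa11, 0 to 5 (mean 0.120 CPM). Neither passed the filter. Gm53, a non-coding gene between Hoxb13 and Hoxb9 (chr11:96251660-96264484) with a mean of 2.13 CPM, fell with TSA in the TKO from 3.36 to 1.29 CPM (log2 fold change -1.37 ± 0.38, edgeR adjusted p = 0.01). In that comparison Hoxb9, the nearer of the 2 Hox genes, did not pass (0.24 ± 0.40, edgeR adjusted p = 0.617), and Hoxb13 rose. In WT cells Gm53 did not pass (-0.51 ± 0.39, edgeR adjusted p = 0.291). Protein-coding genes around the clusters were tested in 18 cases. They lie from 28.9 kb (Ttll6) to 894 kb (Hnrnpa3) from their cluster, so many are not its direct neighbours. With TSA, 5 rose and 6 fell in WT cells (27.8% and 33.3%, against 27% and 25.9% of all tested genes). In the TKO 4 rose and 6 fell with TSA (22.2% and 33.3%, against 30.8% and 27.9%). For TKO against WT, 3 rose and 0 fell in DMSO (16.7% and 0%, against 9.63% and 10.7%). In TSA 3 rose and 1 fell (16.7% and 5.56%, against 10% and 8.38%). Calcoco2, an autophagy receptor gene 82.4 kb from Hoxb13, rose in the TKO from 51.7 to 178 CPM in DMSO (log2 fold change 1.79 ± 0.32, edgeR adjusted p = 0.00303), while Hoxb13 itself was at -0.11 ± 0.51 in that comparison. Evx2, next to Hoxd13, averaged 0.0260 CPM.

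Of 59 homeobox genes of the same ANTP class outside the clusters, 32 were tested. With TSA, 17 rose and 3 fell in WT cells (53.1% and 9.38%, against 27% and 25.9% of all tested genes), and 19 rose and 4 fell in the TKO (59.4% and 12.5%, against 30.8% and 27.9%). Their median log2 fold changes were 1.69 and 1.30. Among tested genes in the level range of the tested Hox genes, edgeR called 38.7% higher and 6.92% lower in WT. In the TKO it called 39% and 12.3% of them, and the medians in that range were 0.80 and 0.66. Msx1, a gene of limb and craniofacial mesenchyme, rose from 1.73 to 18.1 CPM in WT and from 0.917 to 11.6 CPM in the TKO (log2 fold changes 3.34 ± 0.41 and 3.65 ± 0.46, edgeR adjusted p = 9.41e-05 and 6.62e-05). Barx1 and Dlx3 rose in both genotypes as well, while Cdx4 passed in neither (0.07 ± 0.54 and 1.01 ± 0.63, edgeR adjusted p = 0.924 and 0.19). For TKO against WT, 5 rose and 2 fell in DMSO (15.6% and 6.25%, against 9.63% and 10.7% of all tested genes). In TSA 6 rose and 3 fell (18.8% and 9.38%, against 10% and 8.38%).

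Among 36 upstream regulators of Hox genes, 15 rose and 9 fell with TSA in WT cells. This was 41.7% and 25%, against the same 27% and 25.9% of all tested genes. In the TKO 18 rose and 8 fell with TSA (50% and 22.2%, against 30.8% and 27.9%). For TKO against WT, 3 rose and 10 fell in DMSO (8.33% and 27.8%, against 9.63% and 10.7%). In TSA 6 rose and 6 fell (16.7% and 16.7%, against 10% and 8.38%). Cdx1, Cdx2, Cdx4 and Gbx2 are on this list and on the homeobox list, so the counts of the lists share genes. Cdx2, a homeodomain activator of trunk Hox genes, rose with TSA from 2.53 to 23.1 CPM in WT (3.16 ± 0.38, edgeR adjusted p = 9.05e-05) and from 0.496 to 6.05 CPM in the TKO (3.59 ± 0.54, edgeR adjusted p = 0.000221). In DMSO it was lower in the TKO (-2.37 ± 0.62, edgeR adjusted p = 0.0195), and its relative Cdx1 likewise (-2.25 ± 0.49, edgeR adjusted p = 0.00797). Aldh1a1 and Aldh1a3, which make retinoic acid, rose with TSA in both genotypes: Aldh1a3 went from 2.25 to 13.2 CPM in WT and from 0.528 to 9.89 CPM in the TKO (2.54 ± 0.26 and 4.20 ± 0.33, edgeR adjusted p = 3.84e-05 and 4.22e-06). Other retinoic acid genes of the list went both ways with TSA. Means of Cyp26a1 went from 2.17 to 8.37 CPM in WT and from 2.15 to 13.5 CPM in the TKO. Those of the receptor gene Rara went from 43.4 to 13.9 CPM in WT and from 39.0 to 14.8 CPM in the TKO. T and Wnt3, of the primitive streak, fell in the TKO in DMSO, T from 9.70 to 0.391 CPM and Wnt3 from 13.7 to 0.695 CPM (edgeR adjusted p = 0.000319 and 0.000148). In the interaction 1 of the 36, the retinol dehydrogenase gene Rdh10, was called (2.78%, against 1.35% of all tested genes).

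Of the 36 Polycomb genes, which repress Hox clusters, 6 rose and 15 fell with TSA in WT (16.7% and 41.7%, against 27% and 25.9% of all tested genes) and 6 rose and 16 fell in the TKO (16.7% and 44.4%, against 30.8% and 27.9%). Phc1, a subunit of Polycomb repressive complex PRC1, fell from 396 to 124 CPM in WT and from 387 to 105 CPM in the TKO (-1.67 ± 0.19 and -1.88 ± 0.20, edgeR adjusted p = 7.17e-05 and 2.01e-05), while its paralogue Phc2 rose (1.53 ± 0.15 and 1.95 ± 0.16, edgeR adjusted p = 3.64e-05 and 4.57e-06). In the TKO against WT, 7 rose and 3 fell in DMSO (19.4% and 8.33%, against 9.63% and 10.7% of all tested genes). In TSA 5 rose and 1 fell (13.9% and 2.78%, against 10% and 8.38%). Scml2 went from 7.92 to 146 CPM in DMSO (4.21 ± 0.26, edgeR adjusted p = 6.04e-06). Of 19 Trithorax group genes and related activators, 1 rose and 10 fell with TSA in WT (5.26% and 52.6%, against 27% and 25.9%). With TSA in the TKO 3 rose and 9 fell (15.8% and 47.4%, against 30.8% and 27.9%). For TKO against WT, 2 rose and 0 fell in either treatment (10.5% and 0%). The TALE partners split: of 10, 2 rose and 2 fell with TSA in WT (20% and 20%, against 27% and 25.9%). With TSA in the TKO 3 rose and 2 fell (30% and 20%, against 30.8% and 27.9%). Meis1 rose from 10.8 to 29.5 CPM in WT and from 14.0 to 53.8 CPM in the TKO (1.44 ± 0.23 and 1.94 ± 0.22, edgeR adjusted p = 0.000445 and 3.35e-05).

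Markers of other cell types were read in the same libraries, and their lists did not all move one way. Of all tested genes, edgeR called 27% higher and 25.9% lower with TSA in WT, and 30.8% and 27.9% in the TKO. In the level range of the tested Hox genes these shares were 38.7% and 6.92%, and 39% and 12.3%. The 7 trophoblast markers summed to 507 to 757 CPM with DMSO and 1232 to 1340 CPM with TSA in WT cells, and to 91.1 to 131 and 334 to 385 CPM in the TKO, and 7 of 7 rose with TSA in WT and 6 of 7 in the TKO. The 14 markers of fibroblasts and mesenchyme, cells that use Hox genes, summed to 50.2 to 58.1 CPM with DMSO and 101 to 118 CPM with TSA in WT cells, and to 33.2 to 35.6 and 69.0 to 93.7 CPM in the TKO. Of 12 tested, 6 rose and 1 fell with TSA in WT (50% and 8.33%). In the TKO 11 rose and 0 fell (91.7% and 0%). No read of Twist2 was found in TKO DMSO or of Dcn in TKO TSA. The 10 markers of posterior mesoderm and primitive streak summed to 19.3 to 34.2, 34.8 to 41.8, 9.44 to 9.89 and 23.8 to 25.7 CPM in the same order, and Msgn1 had no read in TKO TSA. Of 8 tested, 2 rose and 2 fell with TSA in WT (25% and 25%, median log2 fold change -0.38). In the TKO 2 rose and 1 fell (25% and 12.5%, median 0.63). Cdx2 is on the trophoblast and the mesoderm list, and the mesoderm sum without it, taken after the values were seen, was 18.1 to 30.3, 13.4 to 16.8, 9.03 to 9.31 and 17.9 to 19.5 CPM, lower with TSA in WT and higher in the TKO. The pluripotency markers summed to 3477 to 3870 CPM in WT DMSO and 2011 to 2250 with TSA, and to 4311 to 4650 and 1959 to 2291 CPM in the TKO. Of these 10, 0 rose and 7 fell with TSA in WT, and 0 rose and 8 fell in the TKO. Neural markers summed to 152 to 240, 68.7 to 88.0, 90.6 to 111 and 79.6 to 82.8 CPM. Of 7 tested, 2 rose and 3 fell with TSA in WT (28.6% and 42.9%), and 4 rose and 2 fell in the TKO (57.1% and 28.6%). Endoderm markers summed to 12.8 to 14.6, 17.1 to 19.6, 26.1 to 28.8 and 36.4 to 40.8 CPM. Of 7 tested, 1 rose and 0 fell with TSA in WT (14.3% and 0%), and 2 rose and 0 fell in the TKO (28.6% and 0%). In DMSO the trophoblast sum was lower in the TKO than in WT. Most of the fall was in Krt8 (291 to 30.3 CPM) and Krt18 (299 to 33.6 CPM). Of the 7 trophoblast markers 0 rose and 3 fell in that comparison (0% and 42.9%, against 9.63% and 10.7% of all tested genes). The fibroblast, mesoderm and neural sums were lower in the TKO as well. Of 12 tested fibroblast markers 2 rose and 5 fell there (16.7% and 41.7%), and of 8 mesoderm markers 0 and 3 (0% and 37.5%). Of 7 neural markers 1 rose and 1 fell (14.3% each), with a median log2 fold change of 0.24. Most of the neural fall was in Nes (174 to 59.6 CPM), while Sox1 rose (2.64 to 12.1 CPM). The endoderm and pluripotency sums and the sum of the 38 Hox genes were higher in the TKO. The part of these cells in the Hox levels was not tested.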

How the data were processed

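RNA was ribosome-depleted and sequenced as paired reads from a directional kit, per the labels' protocols. The authors deposited raw read counts per gene with each gene's exon length in bases, per the file headers. The submitters' processing notes name build mm10, TopHat2 2.0.13, featureCounts 1.4.5-p1 and edgeR 3.22.3. The annotation, the strand setting and how multi-mapping reads were counted are not given in the sources used here. Without the strand, antisense reads cannot be told apart. Exons of another listed gene overlap 2 members (Hoxa3 and Hoxa11), both untested.

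From these counts, CPM was computed with TMM-scaled totals. In edgeR 4.0.16 (R 4.3.3), filterByExpr kept 15822 genes, and 1 quasi-likelihood fit over 8 libraries gave 6 contrasts, two-sided, with Benjamini-Hochberg adjustment over all genes tested and calls below 0.05. SE came from each fold change and its F statistic. The steps were tested on simulated data. Replicates differed by more than sampling noise over all genes (chi-square per degree of freedom 5.28 to 12.2), and over the Hox genes with at least 5 reads in a group the value was 1.13 to 1.49. SD and SE take in the spread between libraries, while the CPM floor set by a low read count covers counting error only.

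Members and gene lists were chosen with earlier results of these data known. Of the genes in these fits, 1 Hox gene and 1 gene of the lists are not reported here. The text names every other Hox gene called, the highest of each cluster and, per list and contrast, at most 5 called genes of at least 1 CPM. A730036I17Rik, listed with the RNAs of the clusters, lies on chromosome 2 far from Hoxd and was not described. Alternatives were DESeq2 1.42.0, 2 other scalings, 2 other filters, fits of the compared groups, the replicate number as a block, each library left out, levels per kb and members without overlap.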

Additional observations from a re-analysis of the deposited data

How the results depend on the processing

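Of 22 calls of single Hox genes, 11 held under every alternative run, 11 were lost under at least 1 and 0 changed direction. Every call of Hoxb13, Hoxd1 and Hoxd8 held, as did those of Hoxa10 and Hoxd13 in TKO with TSA against WT with DMSO. DESeq2 called 3 members for TSA in WT (edgeR 7), 3 for TSA in the TKO (edgeR 5), 0 for TKO against WT in DMSO (edgeR 1; 1 had an unadjusted p below 0.05 in DESeq2) and 1 in TSA (edgeR 2). Without a filter, 11 members were called for TSA in the TKO (with it 5), where 38 were tested. Leaving out each library in turn gave 5 to 8 calls for TSA in WT, 4 to 7 for TSA in the TKO, 0 to 2 and 0 to 3 for TKO against WT in DMSO and in TSA, 5 to 8 for TKO with TSA against WT with DMSO and 0 for the interaction (0 to 3 with an unadjusted p below 0.05). In DMSO the count was 0 without the second WT or the second TKO DMSO library (1 and 2 with an unadjusted p below 0.05) and 2 without the first TKO DMSO library. In TSA it was 0 without the first WT TSA library (2 with an unadjusted p below 0.05) and 1 without either TKO TSA library. For TKO against WT in DMSO without the first TKO DMSO library, the genes called were Hoxb4 and Hoxd1 (log2 fold changes -3.37 and 1.91). Hoxc12, the gene called in the main fit, was not among them. A group left with 1 library was assumed to vary like the others, and up to 17 members then passed the filter. With the replicate block the counts were 7, 7, 1, 3 and 7, and 0 for the interaction (1 with an unadjusted p below 0.05). The block added Hoxb4 and Hoxd13 for TSA in the TKO (adjusted p = 0.0456 and 0.0472) and Hoxd1 for TKO against WT in TSA (0.0241). Same-numbered libraries deviated together with r from 0.0485 to 0.39 across genes, not over 0.1 in every pair of groups, so the numbers were not taken as pairs. Scaling by total counts moved the median of all tested genes to 0.22, 0.19 and 0.17 (log2) for TSA in WT, TSA in the TKO and both together. Fits of the compared groups could not be made for the interaction. With Hox genes this low, depth limits which are tested.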
